A study of Homo sapiens with 34 samples.

Results

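The 10 genes described here belong to the machinery that takes a cell from G1 into S phase, and they were followed in LNCaP, a long-established line of human prostate cancer cells. They were the D-type cyclins CCND1 and CCND3, the E-type cyclins CCNE1 and CCNE2, the kinases CDK2, CDK4 and CDK6, the inhibitor CDKN1B, the retinoblastoma protein gene RB1 and the transcription factor E2F1. The genes were chosen by symbol from the deposited tables, and all 10 were found among the 28071 genes of the RNA-seq table and the 25035 of the table of RNA immunoprecipitation (RIP). Of the 10 members, 9 passed the filter on low values in each table and could be tested, and CDK6 did not pass in either.

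D-type cyclins bind CDK4 or CDK6 and start the phosphorylation of the retinoblastoma protein, which holds E2F factors in check. E-type cyclins with CDK2 complete that phosphorylation, and freed E2F1 turns on genes of DNA replication, CCNE1 and CCNE2 among them. CDKN1B, which encodes p27, binds and inhibits cyclin E-CDK2, and in prostate cells androgen signalling is known to act on this switch. EZH2, the catalytic subunit of Polycomb repressive complex 2, trimethylates histone H3 at lysine 27 (H3K27me3), a mark of repressed genes.

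Androgen-dependent LNCaP (AD) grew in RPMI1640, and androgen-independent LNCaP (AI) was kept in RPMI1640 with charcoal-stripped serum, from which steroids are removed. Polyadenylated RNA was sequenced from untreated AD and AI cells, and from AD and AI cells given a mock siRNA or an siRNA to EZH2 (siEZH2) by Lipofectamine 2000 and collected after 24 h. Each of these 6 groups held 2 libraries. RIP used ultraviolet crosslinking at 400 mJ/cm2 and an antibody to EZH2 or control IgG, with 2 libraries per group in AD and AI, and 7 peak lists of chromatin immunoprecipitation (ChIP) covered EZH2 and H3K27me3. The labels' treatment protocol names LNCaP/abl, an androgen-independent line, as the cells transfected, while libraries titled AD carry siRNA names too, and every AD mock or AD siEZH2 value below takes those titles at their word. The labels do not state that replicates came from separate cultures. The p-values may therefore reflect technical spread between libraries only.

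The untreated and the transfected libraries stood apart. Transcripts of the mitochondrial genome held 18.4 to 33.5% of the summed RPKM (read density per gene, corrected for its length and for the size of the library) in the 4 untreated libraries and 2.1 to 4.07% in the 8 transfected ones. EZH2 mRNA was 5.21 and 6.94 RPKM in untreated AD, 10.11 and 12.62 in untreated AI, 10.95 and 12.48 in AD mock, 11.52 and 10.73 in AD siEZH2, 7.07 and 5.44 in AI mock and 3.6 and 4.33 in AI siEZH2. Its fall with siEZH2 was not called in AD (log2 difference -0.07, adjusted p = 1) or in AI (-0.59, adjusted p = 0.126), so no comparison with siEZH2 rests on a called knockdown. All 11 luminal prostate markers were detected, with a summed level of 2706 to 7038 RPKM per library, against 0 to 0.07 RPKM for 3 blood markers, 0.2 to 4.56 for 3 basal markers and 0.86 to 2.92 for 4 stromal and endothelial markers. Among the RIP libraries, 6960 to 16185 genes were above 0 with IgG and 18055 to 19832 with the EZH2 antibody.

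Tests ran on log2(RPKM + 0.5) across all genes with at least 0.5 RPKM in 2 or more libraries, 14227 in RNA-seq and 13667 in RIP. A gene was called at an adjusted p (limma, Benjamini-Hochberg) under 0.05, and a log2 difference on this scale understates the change of genes with low RPKM.

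On the RPKM scale, which corrects for gene length, CCND1 was the most abundant member, with a mean of 106.2 RPKM over the 12 libraries. CDK4 followed at 64.7, CDKN1B at 59.3, E2F1 at 38.2, CCNE1 at 15.4 and CDK2 at 13.7 RPKM. CCND3 stood at 7.35, RB1 at 3.15, CCNE2 at 1.03 and CDK6 at 0.108 RPKM. CCND1 lay above 96% of the genes that passed the filter, and RB1 above 43.8%. CDK4 varied least between the group means, by 1.43-fold on the RPKM scale, and CCNE2 most among the tested members, by 15.9-fold.

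**Figure D1:**
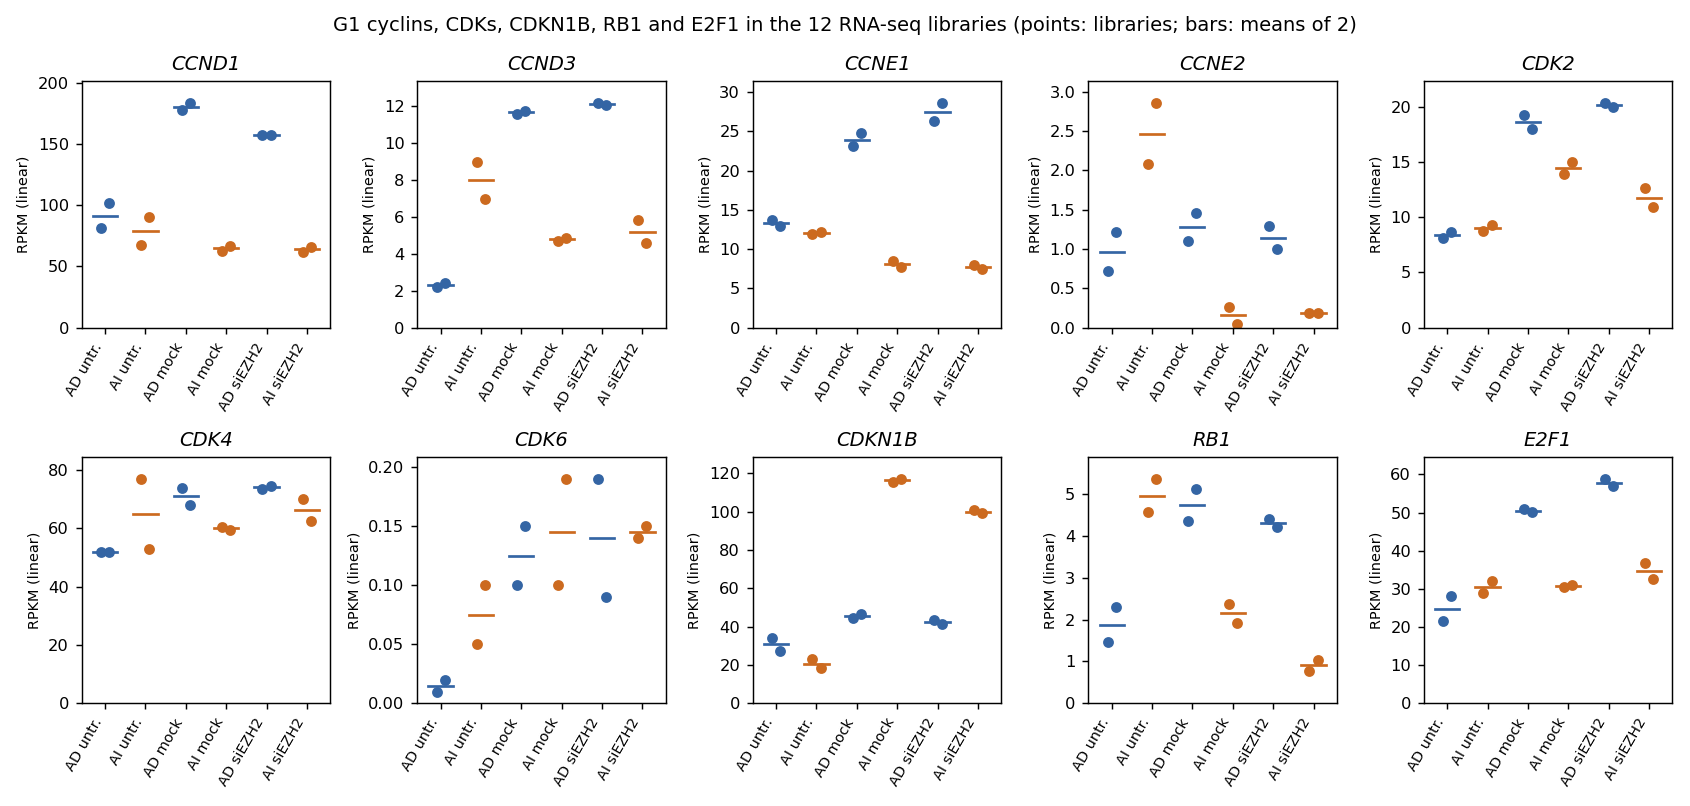
RPKM (linear axes from 0, a scale of its own for each gene) of the 10 members in the 12 RNA-seq libraries, with AD in blue and AI in orange. Points are libraries and bars the means of 2. CDKN1B is highest in the AI mock libraries (115.4 and 116.9 RPKM). CCNE2 is low there (0.26 and 0.05 RPKM) and overlaps AI siEZH2 (0.19 RPKM in both libraries).

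In untreated cells AI differed from AD most in CCND3, RB1 and CCNE2, all higher in AI, and in CDKN1B, lower in AI. CCND3 (chr6:41934933-42050035), a partner of CDK4 and CDK6, was 2.23 and 2.42 RPKM in AD and 8.99 and 7 RPKM in AI. Its log2 difference was 1.58 (SE 0.15, adjusted p = 6.61e-05), and the groups did not overlap. RB1 (chr13:48303751-48481890), the brake on E2F, was 1.46 and 2.3 RPKM in AD and 4.56 and 5.35 RPKM in AI, a log2 difference of 1.22 (SE 0.20, adjusted p = 0.00149). Every AI library was above both AD libraries for these genes. CCNE2, an activator of CDK2 on chromosome 8, was 0.72 and 1.21 RPKM in AD and 2.08 and 2.85 RPKM in AI (log2 difference 1.03, SE 0.24, adjusted p = 0.00993). CDKN1B (chr12:12717368-12722369) was 34.3 and 27.5 RPKM in AD and 22.9 and 18.4 RPKM in AI (log2 difference -0.57, SE 0.13, adjusted p = 0.00882). Its groups did not overlap either, but lay close together. Of the tested members only CCND1 had overlapping groups in untreated cells, so the uncalled CCNE1, CDK2, CDK4 and E2F1 did not overlap either. The share of all genes without overlap was not counted, here or in the comparisons below.

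The other tested members were not called in untreated cells. CCND1 (chr11:69641156-69654474) was 81.3 and 101.8 RPKM in AD and 67.9 and 90.6 in AI, with overlapping groups. CCNE1 (chr19:29811991-29824312) was 13.7 and 12.9 RPKM in AD and 11.9 and 12.1 in AI. CDK2 (chr12:55966830-55972789) was 8.12 and 8.65 RPKM in AD and 8.73 and 9.32 in AI. For these 3 genes the 95% intervals of the log2 difference ran from -0.55 to 0.12, from -0.38 to 0.09 and from -0.15 to 0.35. CCNE1 was called lower in AI with quantile normalization (-0.35, adjusted p = 0.0365) and median-ratio scaling (-0.32, adjusted p = 0.044). CDK4 (chr12:57747727-57752310) was 51.9 and 52.0 RPKM in AD and 76.9 and 52.8 in AI, so that 1 AI library stood far above the other 3 libraries, and without AI replicate 2 it was called higher in AI (0.56, adjusted p = 0.00636). E2F1 (chr20:33675477-33686385) was 21.5 and 28.1 RPKM in AD and 29.0 and 32.2 in AI (log2 difference 0.31, adjusted p = 0.0995), and was called without AD replicate 2 (0.50, adjusted p = 0.0133). In all, 3 of the 9 tested members were called higher in AI, beside 22.2% of all genes, and 1 was called lower, beside 12.4%. The median log2 difference was 0.29 over the members and 0.13 over all genes. Without AD replicate 1 the calls fell from 4 to 2, as CCNE2 (adjusted p = 0.071) and CDKN1B (0.0506) were lost, and CCNE2 was also lost without AI replicate 2 (0.0679). With the untreated libraries tested alone, only CCND3 of the members stayed called, beside 588 of 14227 genes called higher and 518 lower.

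After mock transfection the order of AD and AI was different. CCND1, CCND3, CCNE1, CCNE2, RB1, E2F1 and CDK2 were called lower in AI and CDKN1B higher, although the sign for CDK2 was positive with median-ratio scaling (0.10, adjusted p = 0.474). CCND1 was 177.7 and 183.2 RPKM in AD mock and 62.6 and 66.9 RPKM in AI mock, a log2 difference of -1.47 (SE 0.15, adjusted p = 3.12e-05). CCND3 was 11.6 and 11.8 RPKM in AD mock and 4.7 and 4.86 RPKM in AI mock (-1.21, SE 0.15, adjusted p = 9.56e-05). Both D-type cyclins were thus lower in every AI mock library than in either AD mock library. No tested member had overlapping mock groups, but the share of all genes without overlap was not counted.

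Among the E-type cyclins, CCNE1 was 23.1 and 24.7 RPKM in AD mock and 8.44 and 7.76 in AI mock, a log2 difference of -1.50 (SE 0.10, adjusted p = 3.38e-06). CCNE2 was 1.1 and 1.46 RPKM in AD mock and 0.26 and 0.05 in AI mock (-1.45, SE 0.24, adjusted p = 0.000702). Their partner CDK2 was 19.2 and 18.0 RPKM in AD mock and 13.9 and 15.0 in AI mock, a smaller log2 difference of -0.35 (SE 0.11, adjusted p = 0.0205). The call for CDK2 was lost without AD mock replicate 1 (adjusted p = 0.11), without AI mock replicate 1 (0.119) and with quantile normalization (0.989). CDKN1B, the inhibitor of CDK2, was 44.7 and 46.6 RPKM in AD mock and 115.4 and 116.9 in AI mock. That difference of 1.34 on the log2 scale (SE 0.13, adjusted p = 2.62e-05) was opposite in sign to the one in untreated cells.

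RB1 was 4.36 and 5.11 RPKM in AD mock and 2.38 and 1.91 in AI mock (log2 difference -0.99, SE 0.20, adjusted p = 0.00206). E2F1 was 51.0 and 50.1 RPKM in AD mock and 30.6 and 31.0 in AI mock (-0.71, SE 0.13, adjusted p = 0.00136). The call for RB1 was lost with quantile normalization (-0.35, adjusted p = 0.18) and the call for E2F1 with median-ratio scaling (-0.24, adjusted p = 0.16). CDK4 was 73.9 and 68.1 RPKM in AD mock and 60.5 and 59.5 in AI mock and was not called (95% interval of the log2 difference -0.59 to 0.11), though it was when RPKM was rescaled without mitochondrial genes (-0.40, adjusted p = 0.028) or the mock libraries were tested alone (adjusted p = 0.0312).

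The siEZH2 libraries gave the same members in the same directions. CCNE1 was 26.4 and 28.5 RPKM in AD siEZH2 and 8.02 and 7.46 in AI siEZH2, a log2 difference of -1.76 (SE 0.10, adjusted p = 1.45e-06). RB1 was 4.4 and 4.21 RPKM in AD and 0.77 and 1.04 in AI (-1.78, SE 0.20, adjusted p = 5.45e-05). CDKN1B was 43.2 and 41.6 RPKM in AD and 100.7 and 99.1 in AI (1.23, SE 0.13, adjusted p = 4.37e-05). The groups did not overlap for these genes or for any other tested member, CDK4, which was not called, included. How many of all genes lacked overlap was not counted. CCND1 was 157.2 and 157.3 RPKM in AD and 62.0 and 66.2 in AI (-1.29), and CCND3 12.2 and 12.1 in AD and 5.82 and 4.6 in AI (-1.15). CCNE2 was 1.29 and 1 RPKM in AD and 0.19 in both AI libraries (-1.25). CDK2 was 20.3 and 20.0 RPKM in AD and 12.6 and 10.9 in AI (-0.75), and E2F1 58.8 and 57.0 in AD and 36.9 and 32.5 in AI (-0.73). CDK4, at 73.5 and 74.6 RPKM in AD and 70.0 and 62.5 in AI, was again not called (-0.16), but with median-ratio scaling it was called higher in AI (0.40, adjusted p = 0.0372). Calls were lost for CCNE2 (adjusted p = 0.0754) and CDK2 (0.0533) with quantile normalization, and for CDK2 (0.154) and E2F1 (0.292) with median-ratio scaling.

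**Figure D2:**
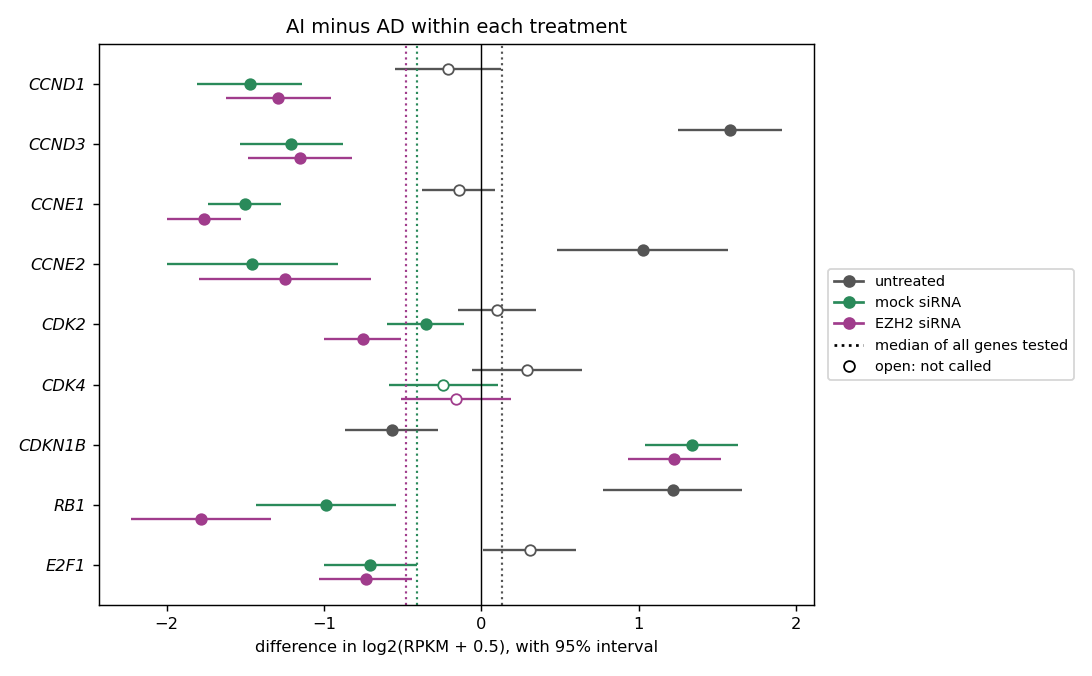
Difference of AI and AD in log2(RPKM + 0.5) for the 9 tested members, in untreated (grey), mock (green) and siEZH2 (purple) libraries, with bars for 95% intervals. Open circles were not called, and dotted lines mark the median of all 14227 genes. CCND3, CCNE2 and RB1 lie right of 0 in untreated libraries and left of it after transfection, and CDKN1B does the reverse. With median-ratio scaling CDK2 (mock) and CDK4 (mock and siEZH2) fall right of 0 and CDK2 (untreated) left of it.

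The whole transcriptome was shifted in these comparisons, which bears on how the members are read. In mock libraries 1 of 9 members was called higher in AI, beside 12.2% of all genes, and 7 were called lower, beside 43.5%. In siEZH2 libraries the counts were again 1 and 7, beside 10.6% and 47.1%. The median log2 difference of all genes was -0.41 in mock and -0.48 in siEZH2, against -0.99 and -1.15 for the members. Quantile normalization moved the median of all genes to 0.02 in mock and 0.03 in siEZH2, and turned the split of genes called higher and lower from 1731 and 6188 to 3440 and 3522 in mock and from 1508 and 6698 to 3225 and 3358 in siEZH2. Median-ratio scaling gave 3518 and 4089 in mock and 3493 and 4012 in siEZH2. With either scaling CCND1, CCND3, CCNE1 and CCNE2 were still called lower in AI mock and CDKN1B higher. In untreated cells the split of 3158 and 1764 became 2336 and 2291 with quantile normalization and 2079 and 2445 with median-ratio scaling.

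Mock libraries were then set against untreated ones within each cell state. They differ in transfection, stood apart in mitochondrial share and were taken here as separate experiments. The protocol names LNCaP/abl for the transfected cells, so the line may differ as well, in AI too. These differences cannot be told apart. In AD, 8 of 9 members were called higher in mock, beside 37.6% of all genes, and 0 were called lower, beside 7.73%. CCND3 moved most, from 2.23 and 2.42 to 11.6 and 11.8 RPKM (log2 difference 2.11, SE 0.15, adjusted p = 9.12e-06). RB1 (1.16), CDK2 (1.10), E2F1 (1.02), CCND1 (0.98) and CCNE1 (0.82) followed, all with adjusted p at or under 0.00129. CDKN1B (0.57, adjusted p = 0.00666) and CDK4 (0.45, adjusted p = 0.0405) were also called, but not with quantile normalization (0.47 and 0.742) or median-ratio scaling (0.357 and 0.863), and CDK4 was lost without any 1 of the 4 libraries (adjusted p = 0.0872 to 0.171). CCNE2 was not called (0.29, adjusted p = 0.354).

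In AI the members split. CDKN1B was 22.9 and 18.4 RPKM in untreated cells and 115.4 and 116.9 in mock, a log2 difference of 2.47 (SE 0.13, adjusted p = 7.43e-07). CCNE2 went the other way, from 2.08 and 2.85 to 0.26 and 0.05 RPKM (-2.19, SE 0.24, adjusted p = 5.32e-05). In AI mock CDKN1B was thus high where CCNE2 was low, with CCNE2 under 0.5 RPKM, while in AD neither gene was lower in mock. RB1 (-1.05), CCND3 (-0.68) and CCNE1 (-0.54) were called lower in mock, with adjusted p of 0.00143, 0.00311 and 0.00155. CDK2 was called higher (0.65, adjusted p = 0.000721), a call lost when RPKM was rescaled without mitochondrial genes (0.25, adjusted p = 0.141). CCND1 (-0.28), CDK4 (-0.09) and E2F1 (0.01) were not called. CCND1 was called lower with quantile normalization (-0.51, adjusted p = 0.041) and without untreated AI replicate 1 (-0.48, adjusted p = 0.0163), CDK4 was called lower without untreated AI replicate 2 (-0.35, adjusted p = 0.0233), and both were called when rescaled without mitochondrial genes (-0.69 and -0.50). The counts were 2 higher, beside 21.5% of all genes, and 4 lower, beside 35.5%. The median of all genes was 0.35 in AD and -0.20 in AI, and scaling turned the split of 5355 and 1100 in AD to 2634 and 2483 (quantile), 2658 and 2347 (median-ratio) and 3673 and 1610 (without mitochondrial genes). In AI it turned 3064 and 5057 to 3727 and 3810, 3935 and 4146, and 1904 and 6838.

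**Figure D3:**
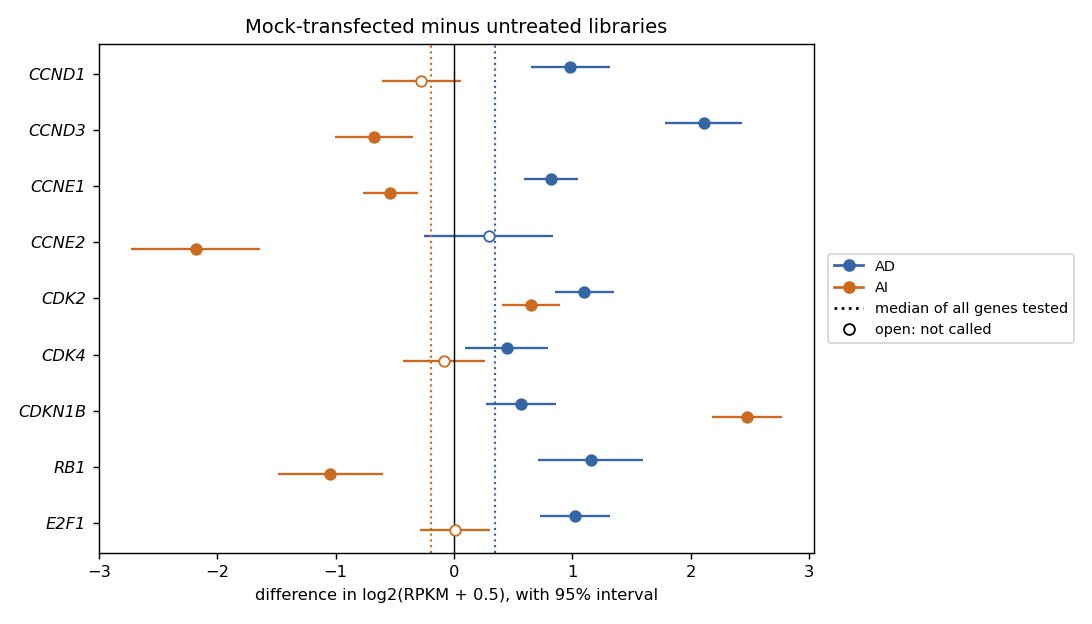
Difference of mock and untreated libraries in log2(RPKM + 0.5) for the 9 tested members, in AD (blue) and AI (orange), with 95% intervals. Open circles were not called, and dotted lines mark the median of all genes. All 9 members lie right of 0 in AD, whereas in AI CDKN1B lies at 2.47 and CCNE2 at -2.19. The sign for CDK4 and E2F1 in AI depends on the scaling.

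The change in the difference of AI and AD between mock and untreated libraries was tested directly. It was called for 8 of 9 members, with 1 more positive, beside 8.99% of all genes, and 7 more negative, beside 41.2%. The largest changes among the members were those of CCND3 (-2.79, SE 0.21, adjusted p = 1.06e-05), CCNE2 (-2.48, SE 0.34, adjusted p = 0.000322), RB1 (-2.20, SE 0.28, adjusted p = 0.000202) and, in the other direction, CDKN1B (1.91, SE 0.19, adjusted p = 4.56e-05). With quantile normalization or median-ratio scaling these 4 and CCNE1 remained called with the same sign. CDK2 (-0.45, adjusted p = 0.0346) had the other sign under both (0.09 and 0.18) and was lost without any 1 of 6 of the 8 libraries, and CCND1 and E2F1 were not called with median-ratio scaling (adjusted p = 0.0551 and 0.149). CDK4 was not called (-0.53, adjusted p = 0.0692), but was without untreated AI replicate 2 (-0.80, adjusted p = 0.00184). The split over all genes, 1279 and 5860, became 2620 and 2902 with quantile normalization and 2892 and 3170 with median-ratio scaling.

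With siEZH2 against mock, 0 of 9 members were called in AD, beside 0.0141% of all genes (2 genes by limma, and 544 at an unadjusted p under 0.05). All 95% intervals of the members in AD lay within -0.66 to 0.49 on the log2 scale. In AI 0 of 9 were called, beside 1.46% (208 genes, and 2675 at an unadjusted p under 0.05). The 208 genes became 11 with quantile normalization, 28 with median-ratio scaling, 59 when rescaled without mitochondrial genes, and 0 when the 2 groups were fitted alone or any 1 of their 4 libraries was left out. RB1 came nearest: its levels were 2.38 and 1.91 RPKM in AI mock and 0.77 and 1.04 in AI siEZH2, which did not overlap, with a log2 difference of -0.91 (SE 0.20, adjusted p = 0.0576). It was called with a pseudocount of 0.1 (adjusted p = 0.0441). The AI groups of CDK2, CDK4, CDKN1B and E2F1 did not overlap either, and the share of all genes without overlap was not counted. In AD RB1 was 4.36 and 5.11 RPKM with mock and 4.4 and 4.21 with siEZH2. The difference between AI and AD in the response to siEZH2 was not called for RB1 (-0.79, adjusted p = 0.628), and by limma it was called for 0 members and for 0% of all genes, with 976 genes at an unadjusted p under 0.05. CDK2 in AI had a log2 difference of -0.29 (adjusted p = 0.196). CDKN1B, at 115.4 and 116.9 RPKM with mock and 100.7 and 99.1 with siEZH2 in AI, had one of -0.22 (adjusted p = 0.422).

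RIP asked which transcripts were recovered with EZH2. CCNE1 was listed at 6.2 and 9.15 RPKM with the EZH2 antibody in AD and 3.93 and 8.36 in AI, and with IgG at 0 and 3.11 in AD and at 0 in both AI libraries. All EZH2 libraries were above all IgG libraries for CCNE1. The test did not call it in AD (log2 difference 2.58, SE 1.0, adjusted p = 0.439) or in AI (adjusted p = 0.117). RB1 was 6.16 and 3.43 RPKM with the antibody in AD and 8.27 and 5.92 in AI, and with IgG 0 and 2.12 in AD and 3.37 and 2.54 in AI. The antibody groups lay above IgG in both cell states for RB1, with log2 differences of 2.16 (adjusted p = 0.457) and 1.13 (adjusted p = 0.47). The median log2 difference of all genes was 0.43 in AD and 0.88 in AI. Antibody groups also lay above IgG for CCNE2 in AD and for CDK2 and CDK4 in AI, and below it for CCND1 and CDKN1B in AD. How many of all genes lay apart in this way was not counted. RB1 had the highest mean but for CCND1 and CCNE1 in the EZH2 libraries, 5.95 RPKM, while in RNA-seq only CCNE2 and CDK6 were below it. The RIP and RNA-seq tables were normalized separately, so these orders are set side by side only.

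CCND1, the most abundant member in RNA-seq, was higher with IgG than with the antibody. It was 4.99 and 9.98 RPKM with the antibody and 11.0 and 22.4 with IgG in AD, and 5.06 and 10.9 against 9.62 and 13.9 in AI. Neither log2 difference, -1.10 in AD or -0.60 in AI, was called (adjusted p = 0.626 and 0.617). CDK2 was 3.92 and 8.78 RPKM with the antibody and 4.41 and 7.29 with IgG in AD, but 2.51 and 6.23 against 0.67 and 0 in AI (log2 difference 2.56, adjusted p = 0.14). CDKN1B was 1.15 and 2.46 RPKM with the antibody and 4.05 and 3.45 with IgG in AD, and 0.96 and 3.43 against 1.23 and 0 in AI. CDK4 was 3.55 and 6.42 RPKM against 1.3 and 10.9 with IgG in AD, and 2.58 and 8.26 against 2.36 and 0 in AI. For CDK4, CCND3 and E2F1 the antibody and IgG libraries overlapped in AD, in AI or in both. CCNE2 was 3.07 and 2.73 RPKM against 0.78 and 1.1 with IgG in AD, and 2.82 and 3.86 against 2.37 and 3.58 in AI. CDK6 was 0.04 to 0.06 RPKM with the antibody and listed at 0 in all 4 IgG libraries.

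By limma, with no replicate block, 0 of 9 members were called between antibody and IgG in AD, in AI, between AI and AD with the antibody, or for the change between the cell states, beside 0% of all genes in each of the 4 comparisons. At an unadjusted p under 0.05 there were 1383, 2930, 233 and 436 genes. Without AI IgG replicate 1, 637 genes were called higher with the antibody in AI and 64 lower. The members' median log2 difference between antibody and IgG was 0.22 in AD and 1.13 in AI, beside 0.43 and 0.88 for all genes. IgG replicates correlated at 0.66 in AD and 0.557 in AI over the genes tested, against 0.885 and 0.861 with the antibody. Over genes detected in both libraries, the most frequent ratio of RPKM was 4.56 for the second AI IgG library over the first AD IgG library. It was 3.76 for the second over the first AI IgG library, and 1.66 for the first AD over the first AI IgG library. These ratios cannot all be the worth of 1 read, since they do not multiply out, so relative depth is known only roughly. A zero in the second AI IgG library may stand for less sequencing than a zero in the first AD or first AI IgG library. Its part in the AI differences was not tested.

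**Figure D4:**
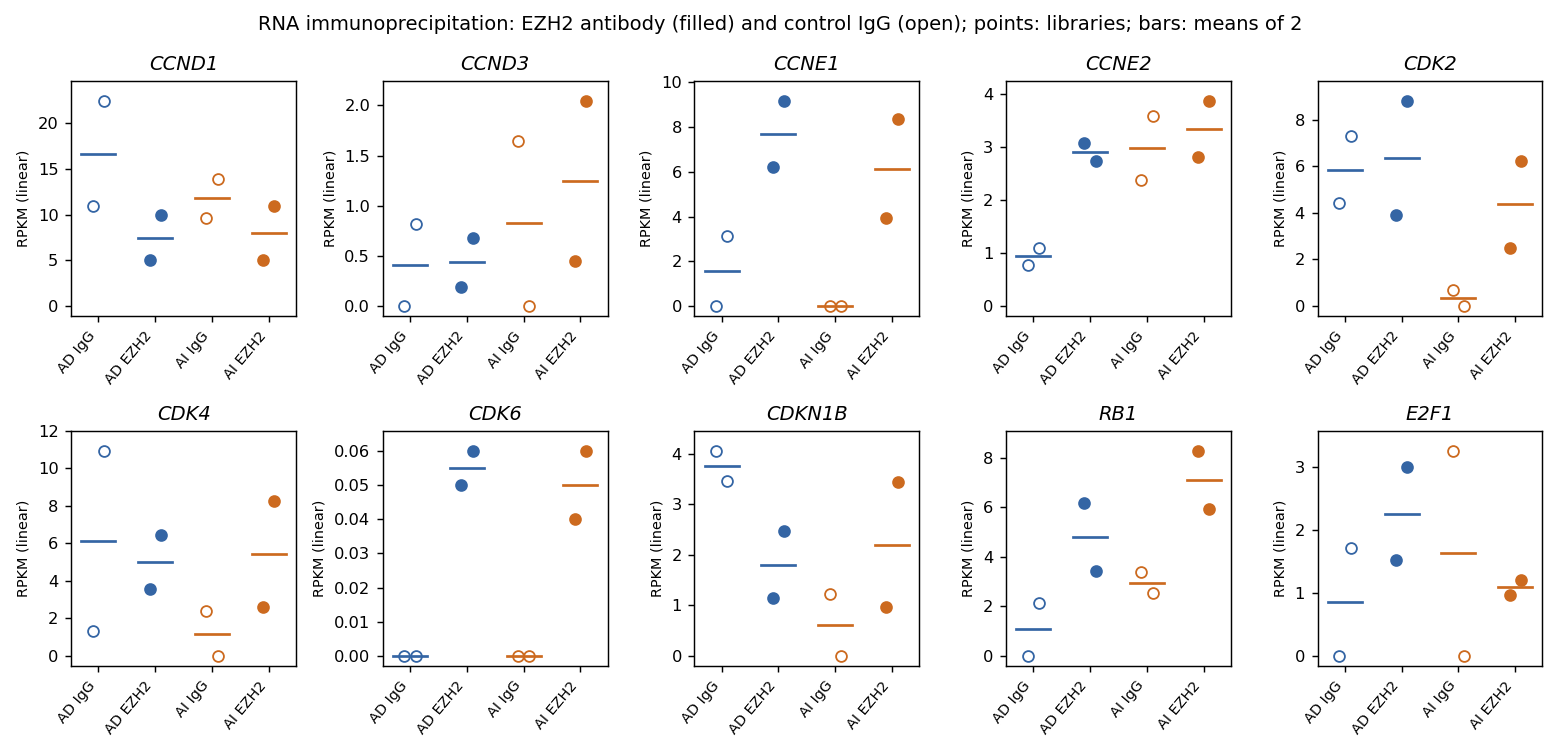
RPKM (linear axes, a scale of its own for each gene) of the 10 members in the 8 RIP libraries, with the EZH2 antibody in filled and IgG in open circles, AD in blue and AI in orange. Bars are means of 2. CCNE1 and RB1 with the antibody lie above IgG in both cell states, and CCND1 lies lower with the antibody on average. The median log2 difference of all genes between antibody and IgG was 0.43 in AD and 0.88 in AI.

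ChIP peak lists showed which members carried H3K27me3. The lists held 70791 to 124079 peaks for H3K27me3 and 11933 to 53911 for EZH2, each from 1 ChIP sample, and they give no value where no peak was called. RefSeq starts were listed for 7 members and lacking for CCND1, CCNE2 and CDK2, and the start listed for RB1 lies inside the gene. Within 2 kb of a listed start, CDK6 was the 1 member of 7 with an H3K27me3 peak, in both AD lists and in the second AI list. Among the 15300 genes with a listed start, 9.13% had such a peak in the first AD list, 10.6% in the second, 7.71% in the first AI list, where 0 members had one, and 16.6% in the second. Over the whole gene with 2 kb on either side, CDK6 was again the 1 member of 10 with an H3K27me3 peak, in all 4 lists. The shares of all 22318 genes were 19.5 and 20.1% in AD and 20.7 and 25.1% in AI.

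CDK6 (chr7:92604921-92836573, 231.65 kb), the kinase partner of D-type cyclins that shares its role with CDK4, was also the member with almost no mRNA. It was 0.01 and 0.02 RPKM in untreated AD, 0.05 and 0.1 in untreated AI, and 0.09 to 0.19 in the 8 transfected libraries, below the filter everywhere. In the first AD list a peak of 5561 bases (chr7:92832210-92837770) covered both listed starts, and its score was above 99.4% of that list. In the second AD list a peak of 6440 bases (chr7:92831886-92838325) did the same, above 99.5% of its list. In the second AI list the peak was 17701 bases long (chr7:92832549-92850249) and above 98.5% of its list. The first AI list had no peak at the starts, and its nearest one lay 9503 bases away, although it held 18 peaks over the gene that covered 18.2% of it, against 23 peaks (16.1%) and 8 peaks (8%) in AD and 18 peaks (17.7%) in the second AI list. So the AI replicates did not give the same answer at the CDK6 starts. Of genes that failed the RNA filter, 22.1 and 25.3% had an H3K27me3 peak at a listed start in AD and 17.1 and 32.2% in AI, against 2.46, 3.05, 2.9 and 8.59% of genes that passed.

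**Figure D5:**
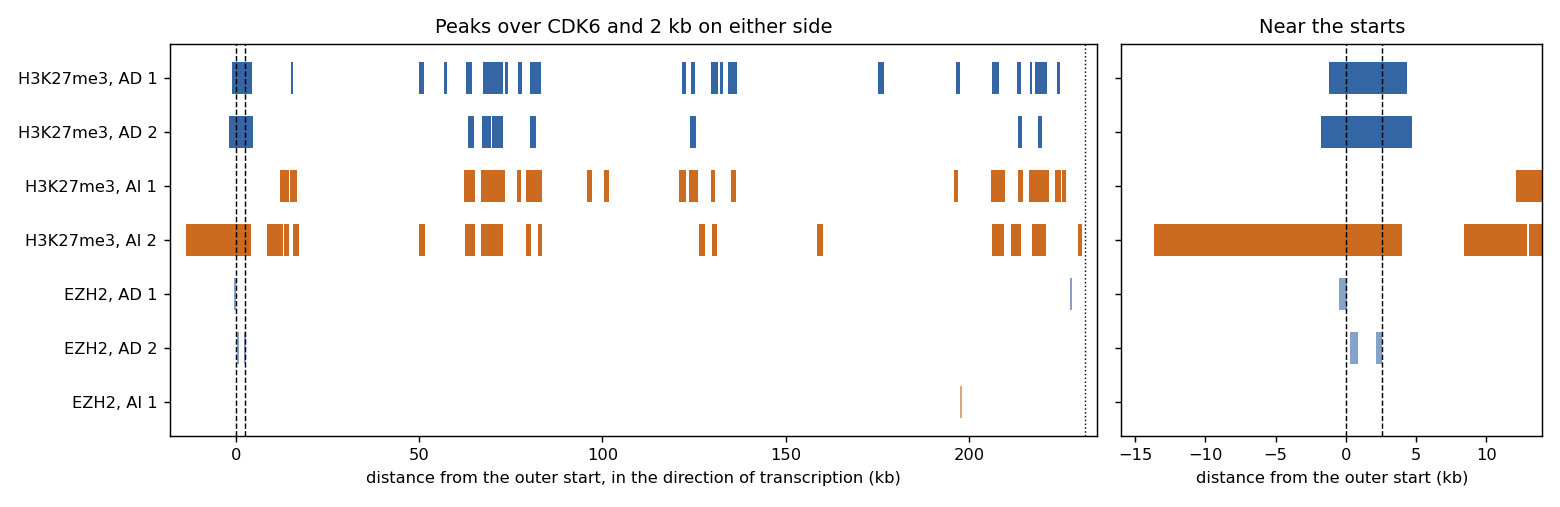
Peaks that overlap CDK6 or the 2 kb on either side in the 7 lists (blue AD, orange AI), by distance in kb from the outer listed start in the direction of transcription, with the region of the starts enlarged on the right. Dashed lines are the 2 listed starts and the dotted line the other end of the gene. A block of H3K27me3 covers the starts in AD 1, AD 2 and AI 2 and is missing from AI 1.

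EZH2 peaks were fewer and narrower. Within 2 kb of a listed start, 3 of 7 members had one in the first AD list (CDK4, CDK6 and E2F1), beside 16.8% of all genes, and 2 of 7 in the second (CDK4 and CDK6), beside 5.07%. The 1 AI list had 0 of 7, beside 2.98%. Over the genes with 2 kb on either side, 7 of 10 members had an EZH2 peak in the first AD list, beside 47.4%, 2 in the second, beside 22.5%, and 3 in the AI list, beside 20.3%. At CDK6 AD peaks lay at the starts (chr7:92836473-92837072 in the first list, chr7:92833966-92834423 and chr7:92835677-92836263 in the second). The first list had another peak in CDK6, 224991 bases from the nearest start. At CDK4 the AD peaks were 300 bases (first list) and 1246 bases (second list) from the start. Peaks of the first and second AD lists did not overlap one another at CDK6 or CDK4. At E2F1 the nearer peak was 138 bases from the start, in the first AD list alone. In CCND1 a peak of each state lay inside the gene at nearly the same place, chr11:69650112-69650772 in the first AD list and chr11:69649996-69650480 in the AI list.

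The promoter windows of the members with peaks at the start, and of CCNE1 and CDKN1B, which differed in opposite directions between AI and AD in mock and siEZH2 libraries, are given from RefSeq (GRCh38.p14), 5′ to 3′ on the strand of the gene, from 250 bases before to 50 bases after the listed start. Capitals mark exact matches on either strand to the E2F-type site TTTNGCG, the E-box CACGTG or the GC box GGGCGG.
CDK6 (chr7:92836524-92836823, minus strand): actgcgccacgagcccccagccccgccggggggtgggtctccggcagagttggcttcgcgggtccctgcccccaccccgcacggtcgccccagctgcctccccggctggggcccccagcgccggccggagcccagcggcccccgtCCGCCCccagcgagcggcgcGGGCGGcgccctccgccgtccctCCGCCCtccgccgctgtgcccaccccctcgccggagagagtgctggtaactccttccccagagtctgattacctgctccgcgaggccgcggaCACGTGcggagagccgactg
CDK4 (chr12:57752261-57752560, minus strand): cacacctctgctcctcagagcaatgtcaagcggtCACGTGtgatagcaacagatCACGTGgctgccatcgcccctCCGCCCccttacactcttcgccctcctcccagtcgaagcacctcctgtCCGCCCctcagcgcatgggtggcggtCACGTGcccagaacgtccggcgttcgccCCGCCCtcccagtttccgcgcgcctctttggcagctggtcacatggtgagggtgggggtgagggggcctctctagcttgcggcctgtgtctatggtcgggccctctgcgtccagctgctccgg
E2F1 (chr20:33686336-33686635, minus strand): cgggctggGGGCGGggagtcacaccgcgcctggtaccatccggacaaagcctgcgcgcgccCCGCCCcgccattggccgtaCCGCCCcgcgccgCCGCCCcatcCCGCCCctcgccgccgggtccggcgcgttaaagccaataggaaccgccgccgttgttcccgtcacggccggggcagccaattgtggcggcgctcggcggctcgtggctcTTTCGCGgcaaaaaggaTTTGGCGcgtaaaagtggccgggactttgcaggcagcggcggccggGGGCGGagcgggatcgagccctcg
CCNE1 (chr19:29811741-29812040, plus strand): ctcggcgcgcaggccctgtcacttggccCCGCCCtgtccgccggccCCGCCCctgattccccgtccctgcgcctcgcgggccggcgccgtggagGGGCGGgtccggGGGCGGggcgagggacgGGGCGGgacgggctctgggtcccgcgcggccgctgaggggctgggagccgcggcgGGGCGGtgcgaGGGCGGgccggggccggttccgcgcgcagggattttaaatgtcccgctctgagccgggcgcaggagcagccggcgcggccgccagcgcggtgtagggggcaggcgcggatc
CDKN1B (chr12:12717118-12717417, plus strand): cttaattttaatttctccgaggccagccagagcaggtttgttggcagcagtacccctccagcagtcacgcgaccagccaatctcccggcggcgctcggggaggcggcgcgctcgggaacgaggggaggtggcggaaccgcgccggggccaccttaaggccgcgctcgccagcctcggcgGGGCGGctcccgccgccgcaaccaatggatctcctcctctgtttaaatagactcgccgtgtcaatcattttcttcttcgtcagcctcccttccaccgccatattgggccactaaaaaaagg

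The matches in these windows did not overlap one another. E2F1 held 2 E2F-type matches, 37 and 20 bases before its start, where 5.14% of all 35116 windows of this length hold at least 1. CDK4 held 3 E-boxes, 216, 196 and 101 bases before its start, and CDK6 held 1 after its outer start, where 7.26% of windows hold any. GC boxes were common, with 7 in CCNE1, 6 in E2F1, 3 in CDK4, 3 in CDK6 and 1 in CDKN1B, and 45% of all windows had at least 1. The CCNE1 window was 81% G or C, the highest of the member windows, against a median of 58.7% for all. A match is a run of letters and not a measured site.

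Over the 12 RNA-seq libraries the members fell into sets with similar profiles, given here as a description because libraries of a group share their condition. CCND1 and CCNE1 correlated at 0.95 (Pearson, log2 scale), CDK2 and E2F1 at 0.90, and CCNE2 and CDKN1B at -0.94. For the 3 members with the widest range of group means, the nearest other genes were sought among 10943. CDKN1B was most like EDN2 (0.99), SNHG29 (0.99) and ANKRD37 (0.99). CCNE2 was most like N4BP1 (0.98), GTF3C1 (0.98) and SEC16A (0.98), and CCND3 most like CTNNA1 (0.97), TPRG1L (0.97) and PANK2 (0.97).

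Other genes of the G1 pathway were taken from a list of 32, of which 29 were in the table and 27 were tested. In untreated cells 3 were called higher in AI and 1 lower, beside 22.2 and 12.4% of all genes. The higher ones were CDKN1A, which encodes the inhibitor p21 (84.2 RPKM in AI, 36.5 in AD, log2 difference 1.19), SKP1, a subunit of the ligase that degrades p27 (0.91), and RBL2, a relative of RB1 (0.76). CDKN1C, the inhibitor p57, was lower in AI (0.965 against 5.16 RPKM, -1.98). In mock libraries 3 were higher in AI and 8 lower, beside 12.2 and 43.5% of all genes. CKS1B, a cofactor in the degradation of p27, was higher in AI (74.8 against 14.1 RPKM, 2.37), as were CDKN1A (1.06) and CDKN1C (0.69). CDC25A, the phosphatase that activates CDK2, was lower (0.995 against 7.61 RPKM, -2.44), as were CUL1, the scaffold of that ligase (-1.76), and E2F3 (-1.70). In siEZH2 libraries 3 were higher and 12 lower, beside 10.6 and 47.1% of all genes, with the same leading genes. The median log2 difference of the list was 0.18, -0.09 and -0.45 in the 3 comparisons, beside 0.13, -0.41 and -0.48 for all genes. With quantile normalization the mock split of 3 and 8 became 8 and 7 and the siEZH2 split of 3 and 12 became 6 and 6, and with median-ratio scaling they became 9 and 7, and 8 and 8. The named genes kept their sign under each scaling, and CDKN1C in mock was not called without mitochondrial genes (adjusted p = 0.0657).

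Within each cell state several inhibitors were among the most changed of the list. In AI, mock against untreated, CDKN1C was 35.5 against 0.965 RPKM (log2 difference 4.67), CDKN2D, which inhibits CDK4 and CDK6, 40.8 against 6.84 RPKM (2.62), and CKS1B 74.8 against 15.5 (2.26). E2F3 (-2.30) and E2F4 (-1.57) were lower, as was CDC25A (0.995 against 5.53 RPKM), and in all 10 of 27 were called higher, beside 21.5% of all genes, and 10 lower, beside 35.5%. Rescaled without mitochondrial genes, 6 were called higher and 14 lower. The list's median moved from -0.21 to -0.62, and that of all genes from -0.20 to -0.51. In AD 11 were higher, led by CDKN1C (2.00), CDKN2D (1.71) and CDKN2C (1.59), and 1 was lower, E2F3 (-0.47). Of all genes 37.6% were called higher and 7.73% lower in AD. That AD split of 11 and 1 became 7 and 4 with quantile normalization or median-ratio scaling. With siEZH2 against mock none of the 27 was called in AD by limma and 1 in AI, MNAT1, a subunit of the kinase that activates CDKs (11.2 against 18.7 RPKM, -0.72, adjusted p = 0.035), which was not called with quantile normalization (0.125) or median-ratio scaling (0.0678).

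Of 28 known E2F targets, all tested, 14 were called higher in untreated AI and 1 lower, beside 22.2 and 12.4% of all genes. CCNA2, the S-phase cyclin, was 13.4 RPKM in AI and 5.67 in AD (log2 difference 1.17), PCNA, the replication clamp, 128.7 and 62.1 (1.04), and MCM5, of the replicative helicase, 23.4 and 11.4 (1.00). UHRF1 was lower in AI (-0.60). In mock libraries 4 were higher in AI and 15 lower, beside 12.2 and 43.5% of all genes. MCM3, also of the helicase, was 9.72 RPKM in AI and 58.6 in AD (-2.53), POLA2, of DNA polymerase alpha, 4.31 and 16.3 (-1.82), and PCNA 33.5 and 92.2 (-1.45). CCNA2 (1.11) and the origin licensing factors CDT1 (1.09) and ORC1 (0.76) were higher in AI. In siEZH2 libraries 2 were higher, CDT1 (1.12) and ORC1 (0.62, but 0.47 and not called at an adjusted p of 0.107 when rescaled without mitochondrial genes), and 19 lower, led by MCM3 (-2.95), PCNA (-2.08) and POLA2 (-1.87). The siEZH2 counts stand beside 10.6% of all genes called higher and 47.1% lower. The medians of the list were 0.50, -0.43 and -0.80, beside 0.13, -0.41 and -0.48 for all genes. Median-ratio scaling turned the split of 14 and 1 in untreated cells to 11 and 3, that of 4 and 15 in mock to 8 and 13, with a median of 0.03, and that of 2 and 19 in siEZH2 to 7 and 12. Quantile normalization gave 12 and 3, 6 and 12, and 3 and 14.

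Mock against untreated, 21 of the 28 targets were called higher in AD and 0 lower, led by RRM1 (1.52) and TK1 (1.47), enzymes of nucleotide supply, and POLA2 (1.33). The 21 became 13 with quantile normalization and 12 with median-ratio scaling. In AI 6 were higher, led by TK1 (1.75), CDT1 (1.67) and ORC1 (1.26), and 12 lower, led by MCM3 (-2.52), PCNA (-1.93) and POLA1 (-1.52). These counts stand beside 37.6% of all genes called higher and 7.73% lower in AD, and 21.5% and 35.5% in AI. The list's median was 0.69 in AD and -0.29 in AI, beside 0.35 and -0.20 for all genes. Rescaled without mitochondrial genes, the counts were 15 and 0 in AD and 4 and 18 in AI. There the list's median in AI was -0.64, beside -0.51 for all genes. With siEZH2 against mock, 0 were called in AD and 1 in AI, RRM1 (52.9 against 83.0 RPKM, -0.64, adjusted p = 0.0338), which was not called with quantile normalization (0.0545) or median-ratio scaling (0.0616).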

How the data were processed

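The authors deposited RPKM values per gene for RNA-seq and for RIP, and ChIP peak lists with a score per peak, the authors' own value. Per the submitters' processing notes, RNA-seq involved cutadapt, RIP and RNA-seq both TopHat2 and edgeR, and ChIP cutadapt with Bowtie2, all on build GRCh38 and without versions. How reads were counted, and whether by strand, is not given in the sources used, and RPKM gives no read totals, so the depth is unknown. Groups came from sample titles, 2 libraries each, except the EZH2 ChIP of AI cells with 1. RPKM was filtered (0.5 or more in 2 libraries), transformed to log2(RPKM + 0.5) and tested with limma 3.58.1 (trend) in R 4.3.3, in 1 fit per table, with Benjamini-Hochberg adjustment over all genes tested. The fit was tested on simulated data. Alternatives were the pseudocount, the filter, quantile normalization, median-ratio scaling, rescaling without mitochondrial genes, the compared groups alone, a replicate block and leaving out each library. Peaks were matched to RefSeq starts and spans of GRCh38.p14, by an overlap of at least 1 base with 2 kb on either side, and the score served to rank peaks inside their own list. Named were all members, EZH2, and the 3 largest called rises and falls of each list, with 3 like genes for each of 3 members. The members and lists were chosen with earlier results of these data known. Inputs were not analysed here.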

Additional observations from a re-analysis of the deposited data

Results flagged for a closer look

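For 8 members the difference between AI and AD was not the same in mock as in untreated libraries, by a test of the change itself (limma, adjusted over all genes). The change on the log2 scale was -1.26 for CCND1, -2.79 for CCND3, -1.36 for CCNE1, -2.48 for CCNE2, -0.45 for CDK2, -2.20 for RB1, -1.01 for E2F1 and 1.91 for CDKN1B. Over all genes the median change was -0.54, and 41.2% of genes were called in the negative and 8.99% in the positive direction. With CDK2 the sign was positive under quantile normalization and median-ratio scaling. The untreated libraries also held more mitochondrial RNA, and its part in these changes was not tested beyond the rescaling without mitochondrial genes. Under that rescaling all 9 tested members were called, beside 1035 of 14227 genes called in the positive and 6484 in the negative direction. The median over all genes was then -0.68. With median-ratio scaling 5 of 9 were called, beside 2892 and 3170 genes.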

How the results depend on the processing

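Of 117 single-gene results, 1568 of 1629 values under alternatives kept their side of the threshold, and 76 of these, not called in either setting, changed sign. Of the rest, 37 were no longer called, 20 became called and 4 changed sign while called in only 1 of the 2 settings. Among these 4, CDK2 lost its call between AI and AD in mock (0.105, median-ratio scaling). CDK2 also lost it in the change between mock and untreated (0.0903 with quantile normalization, 0.178 with median-ratio scaling). CDK4 between AI and AD in siEZH2 was called only with median-ratio scaling (0.395). The cause of these sign changes was not tested. The count of members called between untreated AI and AD went from 4 to 1 when only those groups were fitted (fewer samples), and lay between 2 and 5 when 1 library was left out, where the lone sample is assumed to vary like the other groups. Fitted alone, the untreated groups had 588 genes called higher in AI and 518 lower, against 3158 and 1764 in the main fit. The count for the change between mock and untreated went from 8 to 5 with median-ratio scaling. Genes called in that change went from 1279 and 5860 to 2892 and 3170, in the positive and negative direction. In AI, siEZH2 against mock went from 0 to 1 with a pseudocount of 0.1 (RB1). The count of members with an H3K27me3 peak at the start was 1 under every alternative run.

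With the replicate number as a block, 1 member was called for siEZH2 against mock in AI (RB1, adjusted p = 0.0135) and 1 for the EZH2 antibody against IgG in AI (CCNE1, adjusted p = 0.0373), against 0 without it. The block called 1839 genes in the first comparison (12.9%, 403 higher and 1436 lower) and 1338 in the second (9.79%, 1291 and 47), and 483 for the antibody against IgG in AD (3.53%, 472 and 11), against 208, 0 and 0 without it. CCND1 between mock and untreated AI was called with the block (-0.28, adjusted p = 0.00249). In untreated cells the block raised the count from 4 to 6 (CCND1 and E2F1 added). Over all genes it called 4259 higher in AI and 2384 lower, against 3158 and 1764 without it. No other count of members moved by over 1.5 times. With 2 libraries a group the numbers were not taken as a pairing: the differences between replicates correlated at 0.701 between untreated AD and AI and at 0.713 between the EZH2 RIP groups, at 0.097 to 0.332 between the other RIP groups and at -0.004 to 0.13 between the other RNA-seq groups. Precision is limited by 2 libraries a group and by the spread between IgG replicates.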
